A study of Mus musculus with 12 samples.

Results

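The integrated stress response and the unfolded protein response were followed through 38 genes, of 24533 genes in each of 2 tables of expression in mouse bone marrow. The members are a list of gene names drawn up with earlier results of these data known. Every row whose symbol equals a listed gene was taken, and all 38 were present and tested in both tables. They fall into an integrated stress response arm of 20 genes (the eIF2α kinases, ATF4 and its targets) and an endoplasmic reticulum (ER) arm of 18 genes (sensors, chaperones, disulfide isomerases and degradation factors).

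As background, the integrated stress response starts with kinases that phosphorylate the translation factor eIF2α in answer to low heme, misfolded ER proteins, lack of amino acids or double-stranded RNA. General translation then falls while the mRNA of the transcription factor ATF4 is translated more, and ATF4 raises genes for amino acid uptake, asparagine and serine synthesis and mitochondrial one-carbon metabolism. The unfolded protein response of the ER runs through 3 sensors, PERK (which is also an eIF2α kinase), IRE1 and ATF6, and the transcription factors XBP1 and ATF6 raise the chaperones and folding enzymes of the ER. In blood formation, HRI is known as the heme-regulated kinase of red cell precursors, and cells that make granule proteins or antibodies are known for a large ER.

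The study asked how loss of U2af1, which encodes the smaller subunit of the U2AF heterodimer that reads the 3′ splice site, changes RNA in blood-forming cells. It has 12 RNA-seq libraries from C57BL/6 bone marrow in 4 groups of 3: KO-labelled and WT-labelled LSK cells (the fraction of lineage-negative marrow with Sca-1 and c-Kit on its surface, which holds the stem cells), and KO-labelled and WT-labelled lineage-negative (LinNeg) cells. Marrow was depleted of lineage-positive cells on magnetic columns and then sorted, and ribosomal RNA was removed before library preparation with a NEBNext Ultra II kit. The files hold the authors' own comparison of KO-labelled over WT-labelled libraries for each population. The KO groups carry the U2af1KO genotype and the WT groups the WT genotype, and the LSK samples also carry the label BMT, which is not spelled out. The promoter or Cre behind the deletion, the deleted exons, the age of the mice and whether each library is 1 animal or a pool are not in the labels used here. Since nothing says that replicates came from separate animals, the p-values cover only the variation seen among these libraries, part or all of which may be technical. Values per library were not analysed here and the depth per library is unknown. Means under each label, in normalized counts, were derived from the authors' mean and fold change, and SE stands for the authors' standard error on the log2 scale.

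Some transcripts stood apart in ways that the genotype label does not name, and are given here before the results. U2af1 itself was higher in the KO-labelled libraries of the authors' deposited tables, with log2 fold changes of 0.61 (SE 0.058, adjusted p = 1.72e-25) in LSK and 0.65 (SE 0.19, adjusted p = 0.00293) in LinNeg. A count over the whole gene does not check a deletion of part of it, so the directions given here rest on the labels and on the name of each comparison. All 7 neural markers (Sparcl1, Hpcal4, Cpe, Slc1a2, Map2, Kif1a and Camk2n1) rose in LSK, and their summed means were 2748 in KO-labelled and 14.7 in WT-labelled LSK libraries. In LinNeg 5 of these 7 rose, with summed means of 3007 in KO-labelled and 882 in WT-labelled LinNeg libraries. All 6 seminal vesicle transcripts (Svs2, Svs3b, Svs4, Svs5, Svs6 and Spinkl) rose in LinNeg and had a mean of 0 in LSK. Their summed means were 194417 in KO-labelled and 298 in WT-labelled LinNeg libraries. The SE of these 6 ran from 1.69 to 1.83, against a median of 0.28 over all tested genes in LinNeg. Whether each KO-labelled library carried them is thus not shown. Xist, which is made from the inactive X chromosome, had log2 fold changes of 7.49 (SE 0.94) in LSK and 10.02 (SE 1.81) in LinNeg in the authors' deposited tables. The Y-linked Ddx3y had −9.21 (SE 0.38) in LSK and −0.79 (SE 1.64) in LinNeg. In LSK the derived means were 62360 in KO-labelled and 347 in WT-labelled libraries for Xist, and 4.99 and 2949 for Ddx3y. The genotype label and the sex shown by these transcripts thus cannot be told apart in LSK. For LinNeg the Ddx3y means were 1255 in KO-labelled and 2165 in WT-labelled libraries, not called in the authors' DESeq2 test (adjusted p = 0.739). The LinNeg mean of Xist was 41468 in KO-labelled libraries and far lower in WT-labelled ones (adjusted p = 2.73e-07 in the same test). The genotype label thus goes with a difference in Xist in LinNeg as well. Which KO-labelled LinNeg libraries carried Xist is not shown. The part of these differences in the results was not tested.

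In LSK cells most members of both arms rose. In LinNeg cells most ER genes fell, and in the other arm more members rose than fell. With KO over WT in LSK, 27 of the 38 members rose, 6 fell and 5 were not called, at an adjusted p under 0.05 in the authors' DESeq2 test with Benjamini-Hochberg adjustment over all genes of the table. Over all genes tested in LSK, 32.4% were called higher and 29.2% lower. In LinNeg, 8 members rose, 15 fell and 15 were not called, beside 22.1% of all genes called higher and 19.3% lower. The median gene lay at a log2 fold change of 0.04 in the LSK table and 0.16 in the LinNeg table. With the LinNeg shift taken out, 17.7% of all genes were called higher and 24.1% lower. The higher share of all LinNeg calls was thus 53.3% as deposited and 42.4% after centring. Since these are bulk samples, fewer cells of a type and less RNA per cell cannot be told apart.

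Split by arm, the median fold changes in LinNeg were opposed. Of the 18 ER members, 13 rose and 3 fell in LSK (median log2 fold change 0.68), whereas 0 rose and 13 fell in LinNeg (median −0.62), where all 18 fold changes were below 0. Of the 20 members of the integrated stress response arm, 14 rose and 3 fell in LSK (median 0.62), and 8 rose and 2 fell in LinNeg (median 0.69). Of those 8 rises in LinNeg, 6 were among the 9 amino acid, serine and one-carbon genes, of which 0 fell. Of the 5 kinase and phosphatase subunit genes, 1 rose and 1 fell there. Of the 3 ATF4 branch factors 1 rose and 0 fell, and of the 3 stress targets 0 rose and 1 fell. Called higher in LSK and lower in LinNeg were 12 members, 11 of them ER genes and the other one Chac1, beside 3.43% of the genes tested in both tables. Called higher in both were 6 members, all from the integrated stress response arm (Atf4, Asns, Psat1, Shmt2, Mthfd2 and Slc7a5), beside 14.1% of those genes. The only member lower in both was the ER co-chaperone gene Dnajb9, beside 1916 of the 15735 genes tested in both tables.

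**Figure D1:**
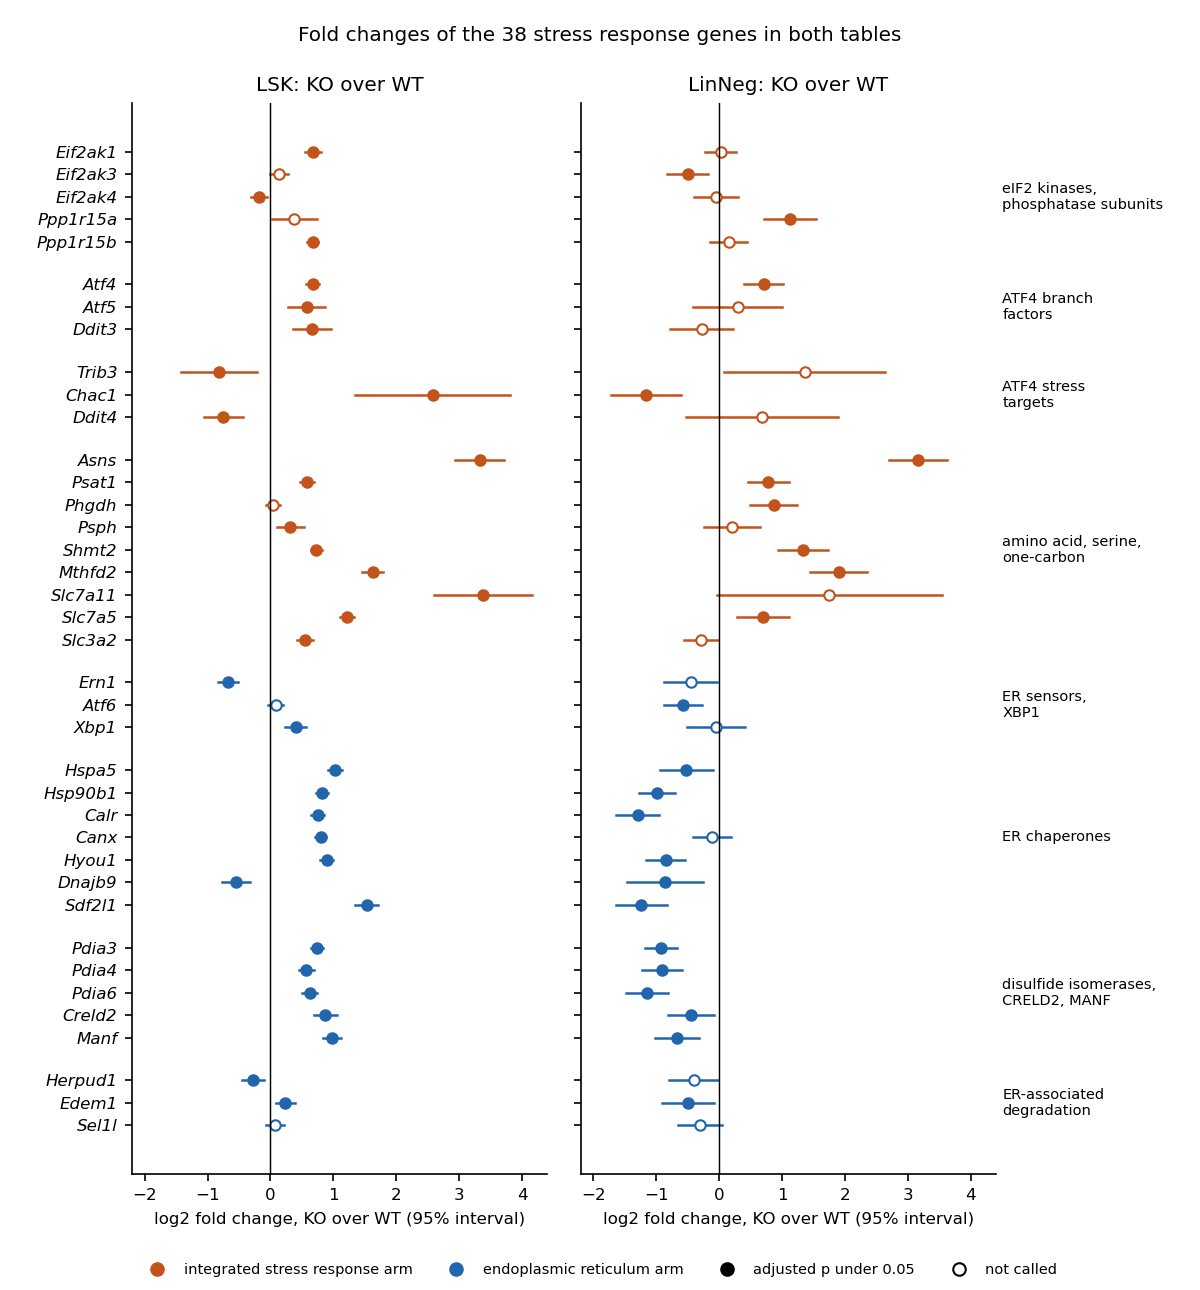
Log2 fold changes of the 38 members, KO over WT, in LSK (left) and LinNeg (right), ordered by role; bars are 95% intervals from the standard errors, not adjusted for the number of genes, and filled points have an adjusted p under 0.05. The ER genes (blue) lie mostly right of 0 in LSK and all left of 0 in LinNeg, while Asns lies above 3 in both.

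The difference between the populations was tested per gene as the LSK effect minus the LinNeg effect over its standard error, in a two-sided normal test with Benjamini-Hochberg adjustment over the 15735 genes tested in both tables. The effect of 19 members was higher in LSK, of which 13 belong to the ER arm, beside 17.4% of all genes. It was lower in LSK for 4 members, all of the integrated stress response arm, beside 14.5% of all genes. These were Phgdh, Shmt2, Ppp1r15a and Trib3. The 2 tables share no library, but each was normalized by itself, so levels are not set against each other across them. The comparison is named BMT for LSK and BM for LinNeg, so population and this label cannot be told apart. The effect on the Y-linked Ddx3y also differed between the comparisons, as given above. The test thus gives differences between the comparisons and cannot assign them to the cell population.

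Promoters of the members were searched for the elements that these responses are known to use. The sites are shown so that the letters behind each match can be read beside the fold changes. The windows are RefSeq promoters of build GRCm38.p6, each 300 bases long with 250 before and 50 after the gene's start in RefSeq, which can differ from the GENCODE spans given for genes here. They were present for 33 members, and Slc7a5, Ppp1r15b, Hyou1, Atf6 and Manf had none. The ER stress element (ERSE: CCAAT, then 9 bases of any kind, then CCACG, on either strand) is the site through which ATF6 and NF-Y are known to act. Its fixed bases are in capitals below, as CGTGG and ATTGG where the element lies on the opposite strand, with 10 bases on each side.
Hspa5: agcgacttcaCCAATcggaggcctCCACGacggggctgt
Pdia6: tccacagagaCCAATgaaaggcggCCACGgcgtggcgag
Canx: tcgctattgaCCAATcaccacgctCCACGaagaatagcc
Hsp90b1, distal: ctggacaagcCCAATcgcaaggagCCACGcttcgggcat
Hsp90b1, proximal: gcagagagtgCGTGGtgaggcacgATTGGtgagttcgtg
Calr: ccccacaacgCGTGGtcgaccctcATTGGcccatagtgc
Creld2: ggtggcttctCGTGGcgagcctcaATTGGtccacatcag
In order, these stretches lie at chr2:34772015-34772053 and chr12:17266481-17266519 on the plus strand, at chr11:50325790-50325828, chr10:86705628-86705666, chr10:86705523-86705561 and chr8:84847065-84847103 on the minus strand, and at chr15:88819510-88819548 on the plus strand. Each element began between 65 and 212 bases before the RefSeq start of its gene.

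The ERSE was in the window of 6 of the 15 ER members with a window and of 0 of the 18 members of the other arm, and in 39 of all 32851 windows (0.119%). All 6 genes with the element rose in LSK, with log2 fold changes between 0.62 and 1.03, and in LinNeg 5 fell and Canx was not called. The 9 ER members with a window but no exact match had 5 rises and 3 falls in LSK (median 0.24, against 0.81 for the 6) and 5 falls in LinNeg (median −0.50, against −0.75). A match describes the letters only, and no difference between these groups of genes was tested. Elements and members were both chosen for these known pathways, so the counts of matches are no independent support. The unfolded protein response element TGACGTGG was in none of the members' windows and in 222 of all windows (0.676%). The whole window of Hspa5 (chr2:34771840-34772139, plus strand), with its ERSE in capitals, is given because this gene is the usual readout of the ER arm.
Hspa5 promoter: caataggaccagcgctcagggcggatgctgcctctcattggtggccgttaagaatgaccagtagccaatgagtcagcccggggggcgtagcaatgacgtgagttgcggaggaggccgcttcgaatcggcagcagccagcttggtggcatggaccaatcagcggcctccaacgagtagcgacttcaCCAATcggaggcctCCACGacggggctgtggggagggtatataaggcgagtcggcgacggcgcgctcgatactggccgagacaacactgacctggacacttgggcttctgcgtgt

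The other element searched was the C/EBP-ATF response element (CARE: TGATGNAA, on either strand), which ATF4 is known to bind as a dimer with C/EBP proteins. It was in the window of 4 of the 18 windowed members of the integrated stress response arm and of 1 of the 15 ER members (Herpud1), and in 1304 of all windows (3.97%). The fixed bases are again in capitals, reading TT, any base, CATCA where the element is on the opposite strand.
Asns: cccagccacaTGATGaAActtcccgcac
Slc7a11, distal: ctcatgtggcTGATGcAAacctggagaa
Slc7a11, proximal: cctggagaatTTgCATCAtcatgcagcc
Chac1: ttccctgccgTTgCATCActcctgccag
Trib3: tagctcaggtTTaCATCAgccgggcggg
Herpud1: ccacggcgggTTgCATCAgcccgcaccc
They lie at chr6:7693215-7693242, chr3:50443662-50443689 and chr3:50443643-50443670 on the minus strand, at chr2:119351039-119351066 on the plus strand, at chr2:152344029-152344056 on the minus strand and at chr8:94386307-94386334 on the plus strand. The 5 genes did not move as a group: Asns, Slc7a11 and Chac1 rose in LSK and Trib3 and Herpud1 fell there, while in LinNeg Asns rose, Chac1 fell and the other 3 were not called. No site of one element overlapped a site of another.

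Among the eIF2α kinases, HRI rose in LSK and PERK fell in LinNeg. Eif2ak1, which encodes the heme-regulated kinase HRI, had derived means of 3527 in KO-labelled and 2204 in WT-labelled LSK libraries (log2 fold change 0.68 ± 0.063 SE, adjusted p = 2.80e-26, from the authors' deposited table). In LinNeg its mean was close under both labels, 3629 in KO-labelled and 3565 in WT-labelled LinNeg libraries (log2 fold change 0.03 ± 0.12 SE, adjusted p = 0.893, from the authors' deposited table), and the effects differed by 0.65 (95% interval 0.38 to 0.93, adjusted p = 2.51e-05). Erythroid genes rose in both populations. All 6 tested of 9 markers of that lineage (Klf1, Gata1, Epor, Slc4a1, Alas2 and Tfrc) were called higher, with log2 fold changes of 1.89 to 4.01 in LSK and 1.42 to 3.40 in LinNeg. The largest in LSK, of Slc4a1 and Alas2, had wide errors (SE 0.96 and 0.90). Their summed means were 51795 in KO-labelled and 7567 in WT-labelled LSK libraries and 53573 in KO-labelled and 11801 in WT-labelled LinNeg libraries. The globin gene Hba-a1 was at or near 0 and Hbb-bs had a mean of 0. How reads were counted is not given, so these values do not show that globin RNA was absent. The part of erythroid cells in the result was not tested.

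Eif2ak3, for the ER-membrane kinase PERK, was not called in LSK, with means of 1355 in KO-labelled and 1232 in WT-labelled LSK libraries. The log2 fold change from the authors' deposited table was 0.14 (SE 0.075, adjusted p = 0.0998). It fell in LinNeg, with means of 1286 in KO-labelled and 1820.3 in WT-labelled LinNeg libraries (log2 fold change −0.50 ± 0.16 SE, adjusted p = 0.0076, from the authors' deposited table). The effects differed by 0.64 (95% interval 0.28 to 0.99, adjusted p = 0.00213). Eif2ak4, for the amino acid sensor kinase GCN2, fell slightly in LSK, by 0.19 on the log2 scale (from the authors' deposited table, adjusted p = 0.0106), and had a fold change of −0.05 in LinNeg that was not called.

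Of the 2 subunits that direct a phosphatase to eIF2α, 1 was called in each population. Ppp1r15a encodes the stress-induced subunit GADD34. In LSK its means were 689 in KO-labelled and 530.4 in WT-labelled LSK libraries and the call was missed (from the authors' deposited table, adjusted p = 0.0619). It rose in LinNeg, with means of 1261 in KO-labelled and 578 in WT-labelled LinNeg libraries (log2 fold change 1.12 ± 0.21 SE, adjusted p = 9.10e-07, from the authors' deposited table). The difference was −0.75 (95% interval −1.30 to −0.20, adjusted p = 0.0272) and lost its call when each table was centred on its median gene (−0.63, adjusted p = 0.0656). Ppp1r15b, for the constitutive subunit CReP, rose in LSK, with means of 11615 in KO-labelled and 7299 in WT-labelled LSK libraries (log2 fold change 0.67 ± 0.047 SE, adjusted p = 6.95e-45, from the authors' deposited table). Its LinNeg means were 9974 in KO-labelled and 8976 in WT-labelled LinNeg libraries, not called, and the effects differed by 0.52 (95% interval 0.21 to 0.82, adjusted p = 0.00429).

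The 3 transcription factors of the ATF4 branch all rose in LSK, and Atf4 rose in LinNeg as well. Atf4, at chr15:80255184-80257541, plus strand in mm10, had derived means of 4592 in KO-labelled and 2880.1 in WT-labelled LSK libraries and 6016 in KO-labelled and 3675 in WT-labelled LinNeg libraries. The log2 fold changes in the authors' deposited tables were 0.67 (SE 0.054, adjusted p = 1.30e-34) in LSK and 0.71 (SE 0.16, adjusted p = 3.47e-05) in LinNeg, and they did not differ detectably (difference −0.04, 95% interval −0.36 to 0.29, adjusted p = 0.897). ATF4 is known to be set mainly by translation, which RNA-seq does not measure. Atf5, another basic zipper factor translated under eIF2α phosphorylation, had means of 317 in KO-labelled and 212 in WT-labelled LSK libraries (log2 fold change 0.58 ± 0.15 SE, adjusted p = 2.56e-04, from the authors' deposited table). In LinNeg Atf5 had a fold change of 0.30 ± 0.36 SE on the log2 scale, from the authors' deposited table, and was not called.

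Ddit3, for the pro-apoptotic factor CHOP, rose in LSK, with means of 322 in KO-labelled and 204 in WT-labelled LSK libraries (log2 fold change 0.66 ± 0.15 SE, adjusted p = 3.31e-05, from the authors' deposited table). In LinNeg the order of the means was turned round, 411 in KO-labelled and 498 in WT-labelled LinNeg libraries, without a call (from the authors' deposited table, adjusted p = 0.398). The effects differed by 0.94 (95% interval 0.36 to 1.51, adjusted p = 0.00664).

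Of the 3 stress targets Chac1, Trib3 and Ddit4, 1 rose and 2 fell in LSK, and 1 fell in LinNeg. Chac1, which encodes a glutathione-degrading enzyme, had means of 29.5 in KO-labelled and 4.95 in WT-labelled LSK libraries (log2 fold change 2.58 ± 0.63 SE, adjusted p = 9.03e-05, from the authors' deposited table), so the rise was at a very low level. In LinNeg it fell, with means of 143 in KO-labelled and 319 in WT-labelled LinNeg libraries (log2 fold change −1.16 ± 0.29 SE, adjusted p = 2.59e-04, from the authors' deposited table). The difference between the populations, 3.74 (95% interval 2.39 to 5.09, adjusted p = 7.22e-07), was the largest of the 38 members. Trib3, for a pseudokinase that feeds back on ATF4 and CHOP, fell in LSK, with means of 43.5 in KO-labelled and 76.7 in WT-labelled LSK libraries (log2 fold change −0.82 ± 0.31 SE, adjusted p = 0.0155, from the authors' deposited table). In LinNeg its means were 79.7 in KO-labelled and 31 in WT-labelled LinNeg libraries without a call (from the authors' deposited table, adjusted p = 0.0811), and the effects differed by −2.18 (95% interval −3.60 to −0.76, adjusted p = 0.0108). Ddit4, for the mTORC1 inhibitor REDD1, also fell in LSK, with means of 419.6 in KO-labelled and 706 in WT-labelled LSK libraries (log2 fold change −0.75 ± 0.16 SE, adjusted p = 4.96e-06, from the authors' deposited table). Its LinNeg means of 1529 in KO-labelled and 952 in WT-labelled LinNeg libraries came with 0.62 as the SE on the log2 scale and no call, from the authors' deposited table.

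Most amino acid, serine and one-carbon genes rose in both populations and none of them fell. Of the 9 genes, 8 rose and 0 fell in LSK (median log2 fold change 0.73), and 6 rose and 0 fell in LinNeg (median 0.87), while the rest were not called. Asns, which makes asparagine from aspartate and is a standard ATF4 target, rose most among them in LinNeg and was second to Slc7a11 in LSK. Its GENCODE span is chr6:7675169-7693254, minus strand in mm10, and its window (chr6:7693160-7693459) holds the CARE shown above. That element begins 23 bases before the start in RefSeq and lies inside the GENCODE span.
Asns promoter: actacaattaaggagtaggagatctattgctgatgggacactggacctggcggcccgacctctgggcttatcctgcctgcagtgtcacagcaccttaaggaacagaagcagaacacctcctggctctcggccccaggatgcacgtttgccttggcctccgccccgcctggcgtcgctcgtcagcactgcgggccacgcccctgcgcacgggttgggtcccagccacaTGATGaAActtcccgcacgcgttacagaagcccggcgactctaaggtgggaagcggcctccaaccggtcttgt
The derived means of Asns were 6852 in KO-labelled and 685 in WT-labelled LSK libraries, a 10-fold difference. In LinNeg they were 5571 in KO-labelled and 621 in WT-labelled LinNeg libraries, an 8.96-fold difference. The log2 fold changes in the authors' deposited tables were 3.32 (SE 0.20, adjusted p = 1.67e-61) in LSK and 3.16 (SE 0.23, adjusted p = 7.71e-40) in LinNeg, and they differed by less than their error (difference 0.16, 95% interval −0.44 to 0.76, adjusted p = 0.75). By size of rise, Asns ranked 19 of the 6369 tested genes whose mean was 1000 or more in LSK, and 33 of 6346 in LinNeg.

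**Figure D2:**
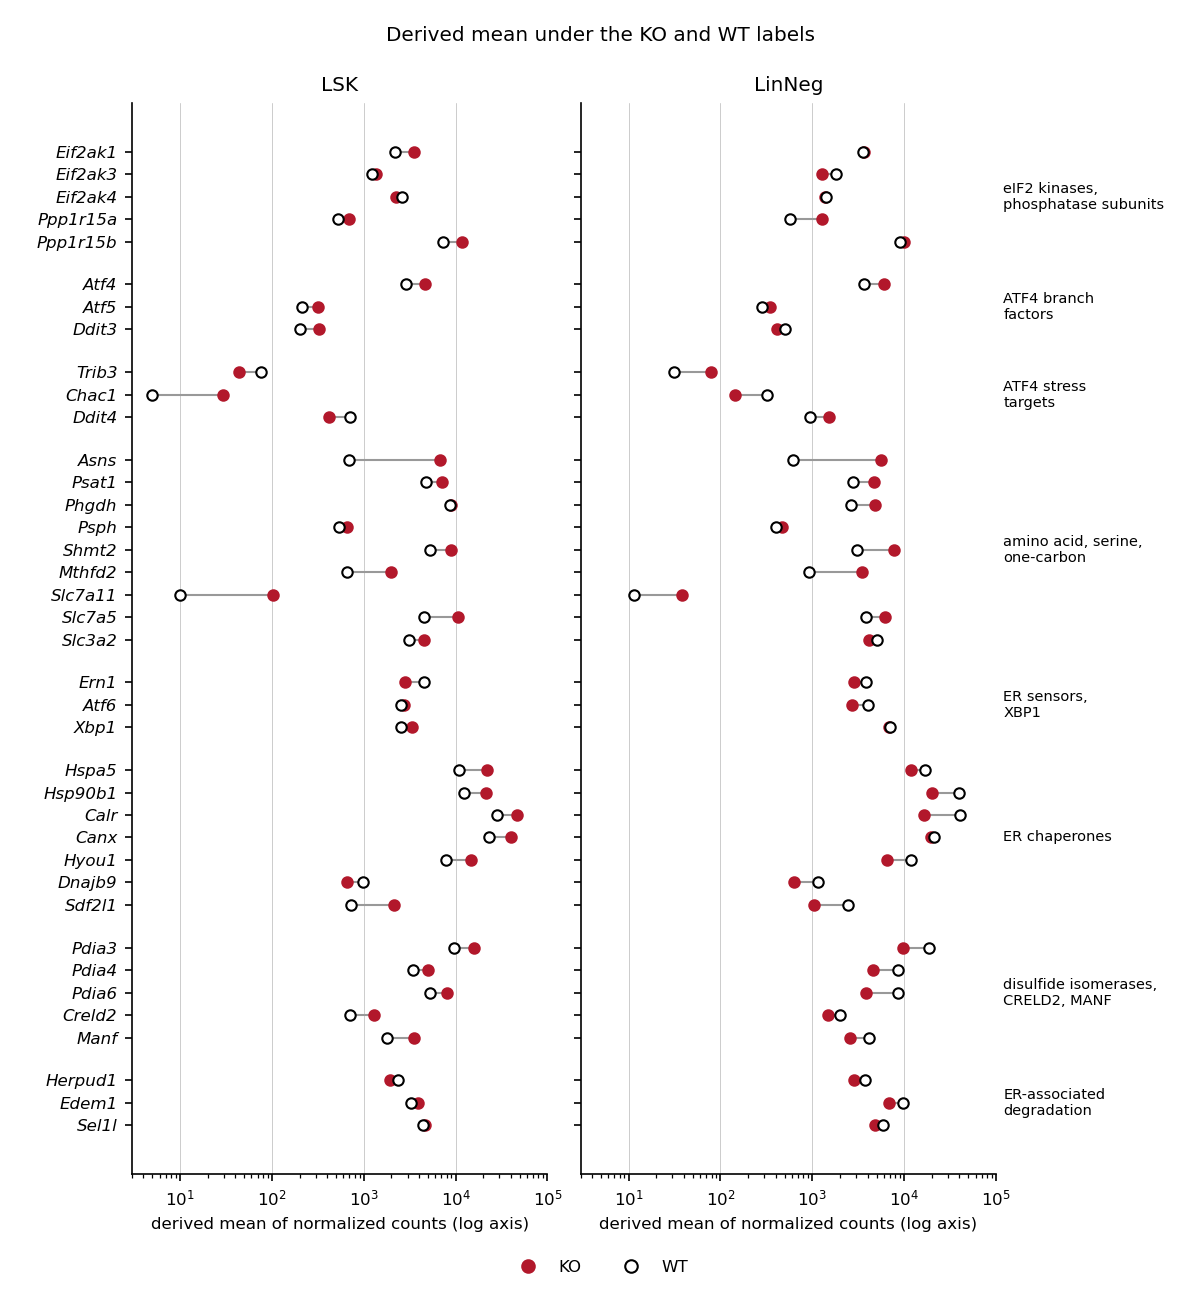
Derived mean of normalized counts (log axis) under the KO label (red) and the WT label (white) for each member in LSK (left) and LinNeg (right). Red lies far to the right of white for Asns in both panels, and for the ER chaperones and disulfide isomerases red lies right of white in LSK and left of it in LinNeg, except for Dnajb9, which is left in both.

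Both mitochondrial one-carbon enzymes among the members, Mthfd2 and Shmt2, rose in both populations. Mthfd2, for the folate dehydrogenase and cyclohydrolase of mitochondria, had means of 2001 in KO-labelled and 649.8 in WT-labelled LSK libraries (log2 fold change 1.62 ± 0.085 SE, adjusted p = 1.12e-78, from the authors' deposited table). In LinNeg the means were 3454 in KO-labelled and 926 in WT-labelled LinNeg libraries (log2 fold change 1.90 ± 0.23 SE, adjusted p = 8.24e-15, from the authors' deposited table). No difference between the populations was detected for it (−0.28, 95% interval −0.76 to 0.21, adjusted p = 0.437). Shmt2, for mitochondrial serine hydroxymethyltransferase, had means of 8822 in KO-labelled and 5324 in WT-labelled LSK libraries (log2 fold change 0.73 ± 0.047 SE, adjusted p = 9.51e-54, from the authors' deposited table). In LinNeg they were 7665 in KO-labelled and 3055 in WT-labelled LinNeg libraries (log2 fold change 1.33 ± 0.20 SE, adjusted p = 7.64e-10, from the authors' deposited table). Its LSK effect minus its LinNeg effect was −0.60 (95% interval −1.01 to −0.19, adjusted p = 0.0158), and this call was lost on centring (−0.48, adjusted p = 0.0564).

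Of the 3 enzymes of serine synthesis, Psat1 and Psph rose in LSK and Phgdh and Psat1 rose in LinNeg. Phgdh, the first enzyme of the pathway, had nearly equal means of 8980.5 in KO-labelled and 8714 in WT-labelled LSK libraries and was not called (log2 fold change 0.04 ± 0.055 SE, adjusted p = 0.507, from the authors' deposited table). In LinNeg Phgdh rose, with means of 4865 in KO-labelled and 2670.3 in WT-labelled LinNeg libraries (log2 fold change 0.87 ± 0.19 SE, adjusted p = 2.80e-05, from the authors' deposited table). The effects differed by −0.82 (95% interval −1.21 to −0.44, adjusted p = 2.12e-04). Of the 4 members whose effect was lower in LSK, it was the one whose call held at an adjusted p under 0.01 as well as on centring. Psat1, the aminotransferase, rose in both populations, with means of 7082 in KO-labelled and 4734 in WT-labelled LSK libraries and 4718 in KO-labelled and 2739 in WT-labelled LinNeg libraries. Its log2 fold changes in the authors' deposited tables were 0.58 (SE 0.054, adjusted p = 4.65e-26) in LSK and 0.78 (SE 0.16, adjusted p = 9.25e-06) in LinNeg. Psph, the phosphatase of the last step, had a small rise in LSK (log2 fold change 0.32 ± 0.11 SE, adjusted p = 0.00866, from the authors' deposited table) and was not called in LinNeg (0.21).

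All 3 amino acid transporter genes rose in LSK, and Slc7a5 also rose in LinNeg. Slc7a11, for the cystine importer xCT, had means of 103 in KO-labelled and 9.92 in WT-labelled LSK libraries (log2 fold change 3.38 ± 0.40 SE, adjusted p = 7.49e-17, from the authors' deposited table). In LinNeg, where the means were 38.3 in KO-labelled and 11.4 in WT-labelled LinNeg libraries, it was not called (log2 fold change 1.75 ± 0.91 SE, adjusted p = 0.112, from the authors' deposited table). Its level was the lowest of all members per length of transcript, 4.07 in LSK and 1.78 in LinNeg as the mean of normalized counts per kilobase of exons, against 1378 and 1132 for Asns. Slc7a5, for the large neutral amino acid transporter LAT1, had means of 10625 in KO-labelled and 4591 in WT-labelled LSK libraries (log2 fold change 1.21 ± 0.057 SE, adjusted p = 1.07e-96, from the authors' deposited table). It rose in LinNeg too, with means of 6178 in KO-labelled and 3811 in WT-labelled LinNeg libraries (log2 fold change 0.70 ± 0.21 SE, adjusted p = 0.0031, from the authors' deposited table), and the difference just missed the threshold (0.51, 95% interval 0.09 to 0.94, adjusted p = 0.0545). Slc3a2, for the heavy chain CD98 that pairs with LAT1 and xCT, rose in LSK, with means of 4508 in KO-labelled and 3078 in WT-labelled LSK libraries (log2 fold change 0.55 ± 0.065 SE, adjusted p = 9.83e-17, from the authors' deposited table). In LinNeg its means were 4126 in KO-labelled and 5036 in WT-labelled LinNeg libraries, not called as deposited (log2 fold change −0.29 ± 0.14 SE, adjusted p = 0.0827, from the authors' deposited table) and called lower after centring (−0.44, adjusted p = 0.00461). The effects of Slc3a2 differed between the populations, by 0.84 (95% interval 0.54 to 1.14, adjusted p = 5.26e-07).

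**Figure D3:**
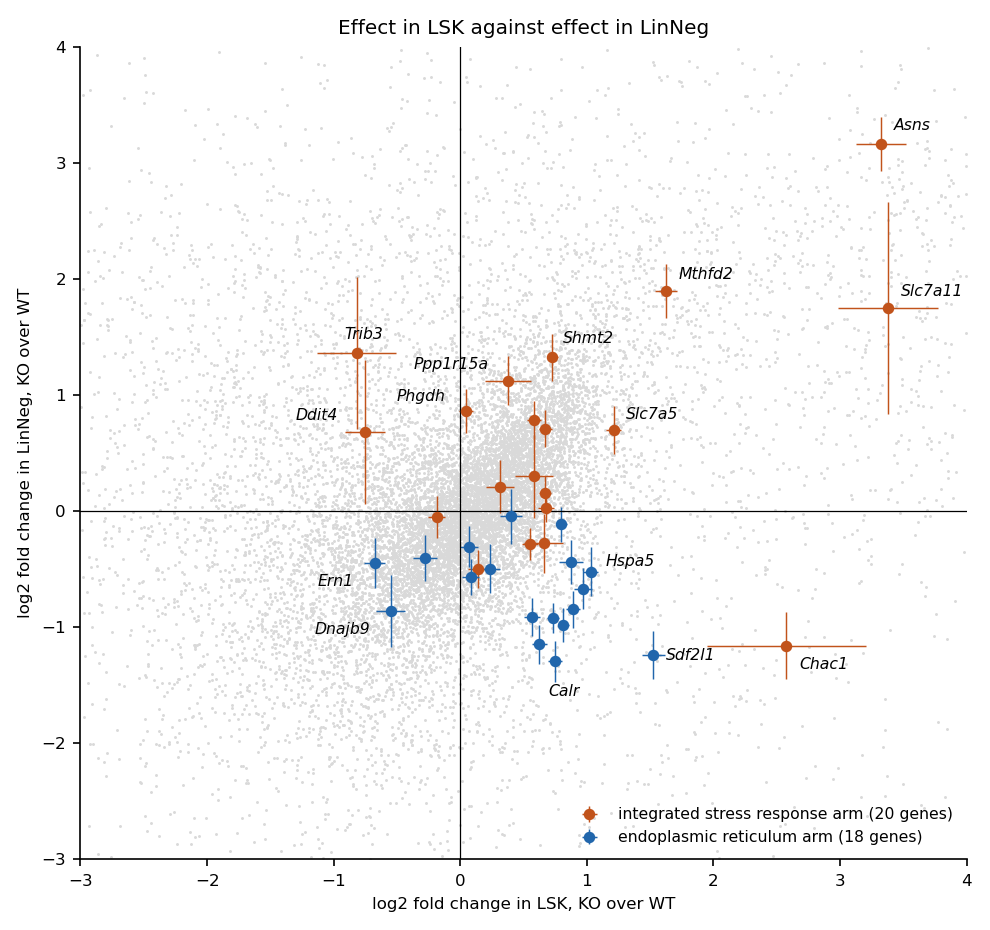
Log2 fold change in LSK (x axis) against that in LinNeg (y axis) for the integrated stress response arm (orange, 20 genes) and the ER arm (blue, 18 genes), with standard errors, over 14360 of the genes tested in both tables (grey, with 1375 beyond the axes). Asns, Mthfd2 and Shmt2 lie in the upper right quadrant, and most ER genes in the lower right.

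Across the 20 members of the integrated stress response arm the LSK and LinNeg fold changes had a Pearson correlation of 0.36 and a Spearman correlation of 0.25, and across the 18 ER members −0.36 and −0.34, beside 0.28 and 0.34 over all 15735 genes. These describe genes within 2 tables, and genes are not independent replicates.

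Of the ER sensors and XBP1, 1 gene rose and 1 fell in LSK, and 1 fell in LinNeg. Ern1, for the sensor IRE1α, fell in LSK, with means of 2827 in KO-labelled and 4512 in WT-labelled LSK libraries (log2 fold change −0.67 ± 0.082 SE, adjusted p = 1.36e-15, from the authors' deposited table). In LinNeg the means were 2818 in KO-labelled and 3849 in WT-labelled LinNeg libraries and the call was missed as deposited (from the authors' deposited table, adjusted p = 0.0782) and made after centring (adjusted p = 0.0135). Its effects did not differ detectably (−0.22, 95% interval −0.67 to 0.22, adjusted p = 0.499). Atf6 encodes the sensor that is cut in the Golgi to release a transcription factor. In LSK it had means of 2714 in KO-labelled and 2565 in WT-labelled LSK libraries and was not called. It fell in LinNeg, with means of 2697 in KO-labelled and 4001 in WT-labelled LinNeg libraries (log2 fold change −0.57 ± 0.15 SE, adjusted p = 9.75e-04, from the authors' deposited table). The effects differed by 0.65 (95% interval 0.32 to 0.98, adjusted p = 6.38e-04). Xbp1, whose mRNA IRE1α splices to make the active factor, rose modestly in LSK (means of 3328 in KO-labelled and 2518 in WT-labelled LSK libraries, log2 fold change 0.40 ± 0.087 SE, adjusted p = 9.56e-06, from the authors' deposited table). It was not called in LinNeg (−0.05), and counts of the whole gene do not show its spliced form.

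Of the 7 ER chaperones and co-chaperones, 6 rose and 1 fell in LSK (median log2 fold change 0.82), and 6 fell in LinNeg (median −0.86) with Canx not called. Hspa5, for BiP, the main Hsp70 of the ER, lies at chr2:34771970-34777547, plus strand in mm10. Its means were 22149 in KO-labelled and 10852 in WT-labelled LSK libraries (log2 fold change 1.03 ± 0.059 SE, adjusted p = 2.58e-67, from the authors' deposited table), a 2.04-fold rise. In LinNeg they were 11826 in KO-labelled and 16987 in WT-labelled LinNeg libraries (log2 fold change −0.52 ± 0.21 SE, adjusted p = 0.0372, from the authors' deposited table). The effects differed by 1.55 (95% interval 1.12 to 1.99, adjusted p = 6.69e-11). Hsp90b1, for the ER Hsp90 GRP94, had means of 21645 in KO-labelled and 12301 in WT-labelled LSK libraries and 19909 in KO-labelled and 39431 in WT-labelled LinNeg libraries. The log2 fold changes in the authors' deposited tables were 0.82 (SE 0.047, adjusted p = 7.30e-66) in LSK and −0.99 (SE 0.15, adjusted p = 2.06e-10) in LinNeg. Both general chaperones rose in LSK and fell in LinNeg, and for Hsp90b1 the difference was 1.80 (95% interval 1.5 to 2.10, adjusted p = 1.26e-29).

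The lectin chaperones, which hold glycoproteins while they fold, both rose in LSK, and Calr fell in LinNeg. Calr, for calreticulin, was the member with the highest level per length (13025 in LSK and 9859 in LinNeg as the mean per kilobase) and had means of 47035 in KO-labelled and 27989 in WT-labelled LSK libraries (log2 fold change 0.75 ± 0.052 SE, adjusted p = 3.52e-45, from the authors' deposited table). In LinNeg the means were 16446 in KO-labelled and 40345 in WT-labelled LinNeg libraries (log2 fold change −1.29 ± 0.17 SE, adjusted p = 2.27e-12, from the authors' deposited table), the lowest fold change of all members there, and the effects differed by 2.04 (95% interval 1.69 to 2.40, adjusted p = 5.08e-27). Canx, for the membrane-bound calnexin, rose in LSK, with means of 40146 in KO-labelled and 23089 in WT-labelled LSK libraries (log2 fold change 0.80 ± 0.044 SE, adjusted p = 1.11e-71, from the authors' deposited table). In LinNeg the means were 19716 in KO-labelled and 21359.8 in WT-labelled LinNeg libraries (not called, −0.12 on the log2 scale), and the effects differed by 0.91 (95% interval 0.60 to 1.23, adjusted p = 1.30e-07).

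Of the remaining chaperone genes, Sdf2l1 and Hyou1 rose in LSK and fell in LinNeg, and Dnajb9 fell in both. Sdf2l1, for an ER luminal protein that works with BiP cofactors, had means of 2114 in KO-labelled and 734 in WT-labelled LSK libraries (log2 fold change 1.53 ± 0.091 SE, adjusted p = 2.95e-62, from the authors' deposited table). In LinNeg they were 1044 in KO-labelled and 2461 in WT-labelled LinNeg libraries (log2 fold change −1.24 ± 0.21 SE, adjusted p = 2.22e-08, from the authors' deposited table), and the difference of 2.76 (95% interval 2.32 to 3.21, adjusted p = 3.33e-32) was the largest in the ER arm. Hyou1, for the nucleotide exchange factor GRP170, had means of 14694 in KO-labelled and 7920.2 in WT-labelled LSK libraries and 6513 in KO-labelled and 11725 in WT-labelled LinNeg libraries. The log2 fold changes in the authors' deposited tables were 0.89 (SE 0.055, adjusted p = 8.51e-57) in LSK and −0.85 (SE 0.16, adjusted p = 9.09e-07) in LinNeg, with a difference of 1.74 (95% interval 1.41 to 2.07, adjusted p = 7.36e-23). Dnajb9, for the BiP co-chaperone ERdj4, a known target of XBP1, fell in both, with means of 666 in KO-labelled and 974 in WT-labelled LSK libraries and 629 in KO-labelled and 1142 in WT-labelled LinNeg libraries. Its log2 fold changes in the authors' deposited tables were −0.55 (SE 0.12, adjusted p = 5.66e-06) in LSK and −0.86 (SE 0.31, adjusted p = 0.0165) in LinNeg, and no difference was detected (0.31, 95% interval −0.34 to 0.96, adjusted p = 0.521).

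All 5 genes for disulfide isomerases and the ER proteins CRELD2 and MANF rose in LSK (median 0.73) and fell in LinNeg (median −0.91). Pdia3, for the isomerase ERp57 that works with calreticulin and calnexin, had means of 16043 in KO-labelled and 9649 in WT-labelled LSK libraries (log2 fold change 0.73 ± 0.050 SE, adjusted p = 4.08e-48, from the authors' deposited table). In LinNeg its means were 9821 in KO-labelled and 18607 in WT-labelled LinNeg libraries (log2 fold change −0.92 ± 0.13 SE, adjusted p = 2.25e-11, from the authors' deposited table). Pdia4, another isomerase of this family, had means of 5069 in KO-labelled and 3423 in WT-labelled LSK libraries and 4561 in KO-labelled and 8583 in WT-labelled LinNeg libraries. It had log2 fold changes in the authors' deposited tables of 0.57 (adjusted p = 9.35e-20) in LSK and −0.91 (adjusted p = 1.68e-07) in LinNeg. Pdia6, for the isomerase P5, which also acts on activated IRE1, had means of 8054 in KO-labelled and 5228 in WT-labelled LSK libraries and 3872 in KO-labelled and 8590.3 in WT-labelled LinNeg libraries. Its log2 fold changes were 0.62 (SE 0.059, adjusted p = 2.16e-25) in LSK and −1.15 (SE 0.17, adjusted p = 2.81e-10) in LinNeg in the authors' deposited tables. The effects of Pdia3, Pdia4 and Pdia6 differed between the populations by 1.66, 1.48 and 1.77 on the log2 scale, with adjusted p of 2.44e-30, 6.20e-16 and 1.00e-20.

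Creld2 and Manf, both for secreted or luminal proteins induced by ER stress, also rose in LSK and fell in LinNeg. Creld2 had means of 1299 in KO-labelled and 709.7 in WT-labelled LSK libraries (log2 fold change 0.87 ± 0.093 SE, adjusted p = 6.69e-20, from the authors' deposited table). In LinNeg it had 1479 in KO-labelled and 2006 in WT-labelled LinNeg libraries (log2 fold change −0.44 ± 0.19 SE, adjusted p = 0.0458, from the authors' deposited table), a call that was lost when genes of low count were not filtered out (adjusted p = 0.0507). Manf had means of 3510.3 in KO-labelled and 1791 in WT-labelled LSK libraries (log2 fold change 0.97 ± 0.073 SE, adjusted p = 4.28e-39, from the authors' deposited table). In LinNeg they were 2580.3 in KO-labelled and 4099 in WT-labelled LinNeg libraries (log2 fold change −0.67 ± 0.18 SE, adjusted p = 6.87e-04, from the authors' deposited table). The differences were 1.31 (95% interval 0.90 to 1.72, adjusted p = 6.35e-09) for Creld2 and 1.64 (95% interval 1.26 to 2.01, adjusted p = 4.49e-16) for Manf.

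Of the 3 degradation genes, 1 rose and 1 fell in LSK, and 1 fell in LinNeg. Edem1, for the lectin that hands misfolded glycoproteins to degradation, rose in LSK (means of 3886 in KO-labelled and 3301 in WT-labelled LSK libraries, log2 fold change 0.24 ± 0.078 SE, adjusted p = 0.00471, from the authors' deposited table). It fell in LinNeg, with means of 6886 in KO-labelled and 9717 in WT-labelled LinNeg libraries (log2 fold change −0.50 ± 0.21 SE, adjusted p = 0.0433, from the authors' deposited table), and the effects differed by 0.73 (95% interval 0.30 to 1.17, adjusted p = 0.00483). Herpud1, for a membrane component of the degradation complex, fell by 0.28 on the log2 scale in LSK (from the authors' deposited table, adjusted p = 0.00479) and had −0.40 in LinNeg without a call. Sel1l, for the adaptor of the ubiquitin ligase HRD1, was called in neither table (0.07 in LSK and −0.31 in LinNeg). After centring, Herpud1 and Sel1l were called lower in LinNeg (adjusted p = 0.0131 and 0.0248).

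**Figure D4:**
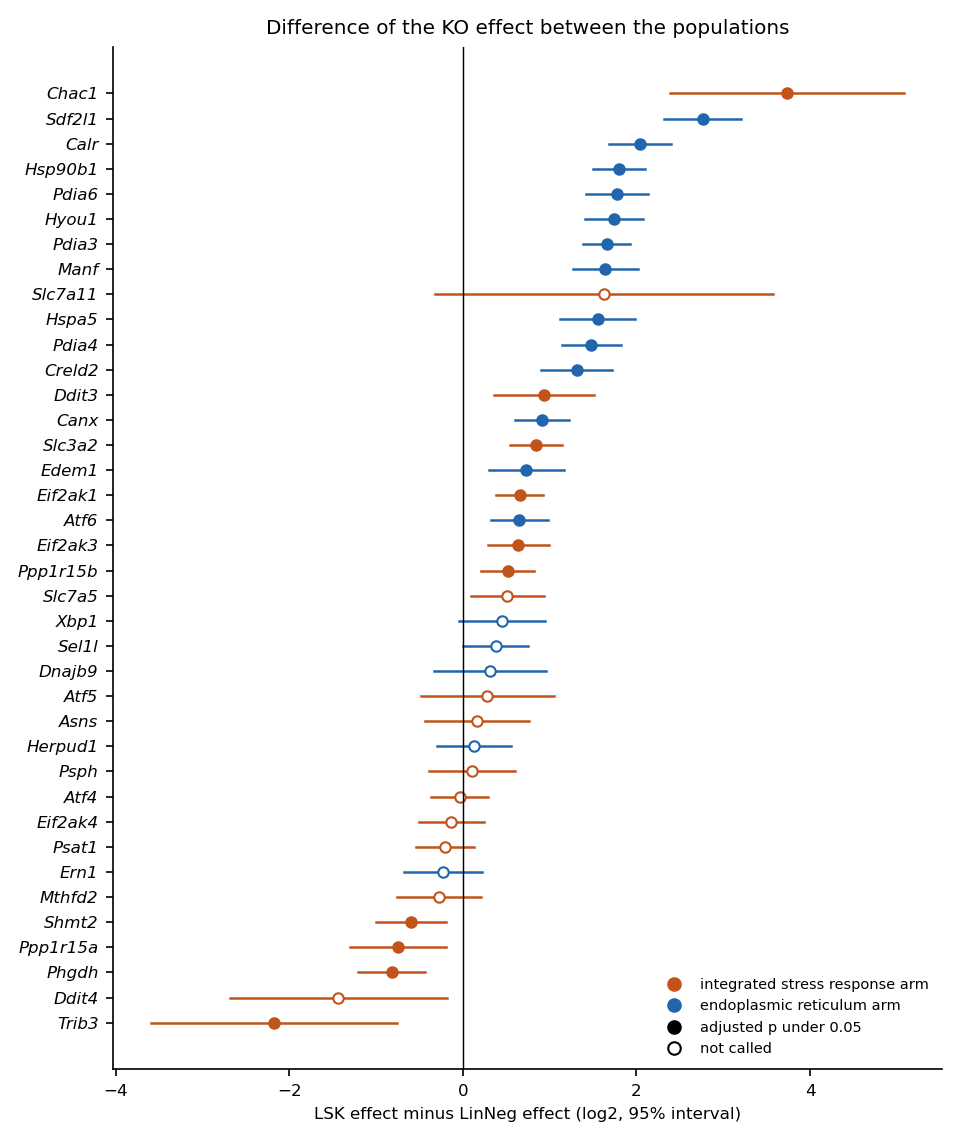
LSK effect minus LinNeg effect (log2) for each member with its 95% interval, in order of size; filled points have an adjusted p under 0.05. Chac1 and Sdf2l1 stand at the top with 3.74 and 2.76, and the 4 filled points left of 0 are all in the integrated stress response arm.

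Granule markers rose in LSK and most of them fell in LinNeg, where most monocyte and dendritic markers fell too. Their part in the results on the ER genes was not tested. All 8 promyelocyte and neutrophil granule markers (Mpo, Elane, Prtn3, Ctsg, Ms4a3, Cebpe, Ltf and Lcn2) rose in LSK, with summed means of 172579 in KO-labelled and 61284 in WT-labelled LSK libraries. In LinNeg 6 of the 7 tested fell and Cebpe was not called, with summed means of 4465 in KO-labelled and 87229 in WT-labelled LinNeg libraries. Ltf had no adjusted p in LinNeg, and its log2 fold change there was above 0 (1.33, SE 1.62). Mpo alone, for the granule enzyme myeloperoxidase, had log2 fold changes of 1.33 in LSK and −4.90 in LinNeg in the authors' deposited tables. Of the monocyte and classical dendritic markers, 2 rose and 3 fell of 7 tested in LSK, with summed means of 6246 in KO-labelled and 6595 in WT-labelled LSK libraries. Of these, Cd209a was near 0 in LSK under both labels. All 8 fell in LinNeg (log2 fold changes of −8.11 to −0.98), with summed means of 6528 in KO-labelled and 71623 in WT-labelled LinNeg libraries. Of 8 plasmacytoid dendritic markers, 1 rose and 3 fell in LSK (range −2.47 to 0.66), with summed means of 5384 in KO-labelled and 13048 in WT-labelled LSK libraries. In LinNeg 1 rose and 6 fell (range −11.21 to 1.79), with summed means of 7161 in KO-labelled and 21395 in WT-labelled LinNeg libraries. Ccr9 was the gene that rose there. The defining gene Siglech was near 0 in KO-labelled LinNeg libraries.

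Of 7 tested plasma cell markers, 0 rose and 3 fell in LSK (range −3.84 to −0.16), with summed means of 532 in KO-labelled and 1458 in WT-labelled LSK libraries. In LinNeg 5 of them rose and 0 fell (range 0.22 to 2.01), with summed means of 46894 in KO-labelled and 20896 in WT-labelled LinNeg libraries. The 7 stem and progenitor markers (Kit, Ly6a, Hlf, Meis1, Mecom, Procr and Angpt1) were tested in both populations, so their presence does not check the LSK label. All 7 fell in LSK. Their log2 fold changes ran from −3.95 for Hlf to −0.82 for Ly6a in the authors' deposited table, with summed means of 21114 in KO-labelled and 68141 in WT-labelled LSK libraries. In LinNeg 2 of these 7 rose and 2 fell (range −3.05 to 3.56), with summed means of 6448 in KO-labelled and 7016 in WT-labelled LinNeg libraries.

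Other genes of the same pathways, taken from lists set up by pathway, were counted in the same way. Of 28 tested genes of the ATF4 pathway outside the members, 14 rose and 5 fell in LSK (median log2 fold change 0.51), and 12 rose and 6 fell in LinNeg (median 0.85). The genes named from these lists are the called ones of largest change with a mean of at least 100 in each table. Below that mean, Stc2, for a secreted glycoprotein, and Cth, for a cysteine-making enzyme, had larger rises, with log2 fold changes in the authors' deposited tables of 2.32 and 2.31 in LSK and 4.88 and 4.70 in LinNeg. Above it, the largest rises in LSK were of Slc1a4, a neutral amino acid transporter (2.06), Mthfd1, the cytosolic one-carbon enzyme (1.80), and Cebpb, a basic zipper partner of ATF4 (1.39), in the authors' deposited table. The largest falls were of the lipoprotein receptor gene Vldlr (−2.50), the AP-1 repressor gene Jdp2 (−0.64) and the glutamine transporter gene Slc38a2 (−0.45), as log2 fold changes in the authors' deposited table. In LinNeg the largest rises in the authors' deposited table were of Mthfd1 (2.60), Slc1a4 (2.44) and the alanine transaminase gene Gpt2 (2.26), and the largest falls of Cebpb (−1.66), Cebpg, another partner of ATF4 (−0.91), and Jdp2 (−0.72). The effect on Cebpb differed between the populations by 3.04 (adjusted p = 8.71e-34).

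Of 36 other ER folding and degradation genes, 25 rose and 4 fell in LSK (median 0.33), and 3 rose and 19 fell in LinNeg (median −0.47). The effect was higher in LSK for 24 of them and lower for 2, and 14 were called higher in LSK and lower in LinNeg. The largest rises in LSK, from the authors' deposited table, were of Dnajb11, a BiP co-chaperone (1.03), Sec61b, a subunit of the translocation channel (0.97), and Ero1l, the oxidase that recharges the disulfide isomerases (0.90). By the authors' deposited table, those that fell most in LSK were the ER membrane protein gene Wfs1 (−1.89), Mbtps2 (−0.41), the protease gene needed to release ATF6, and Ero1lb (−0.33). In LinNeg, from the authors' deposited table, Edem3 (−2.40) and Os9 (−1.5), both of ER-associated degradation, and the isomerase gene Pdia5 (−1.47) had the largest falls. The 3 that rose there were Derl3 (1.42), of the degradation channel, the disulfide isomerase gene Txndc5 (0.92) and the ubiquitin-like modifier gene Ufm1 (0.41), in the authors' deposited table.

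**Figure D5:**
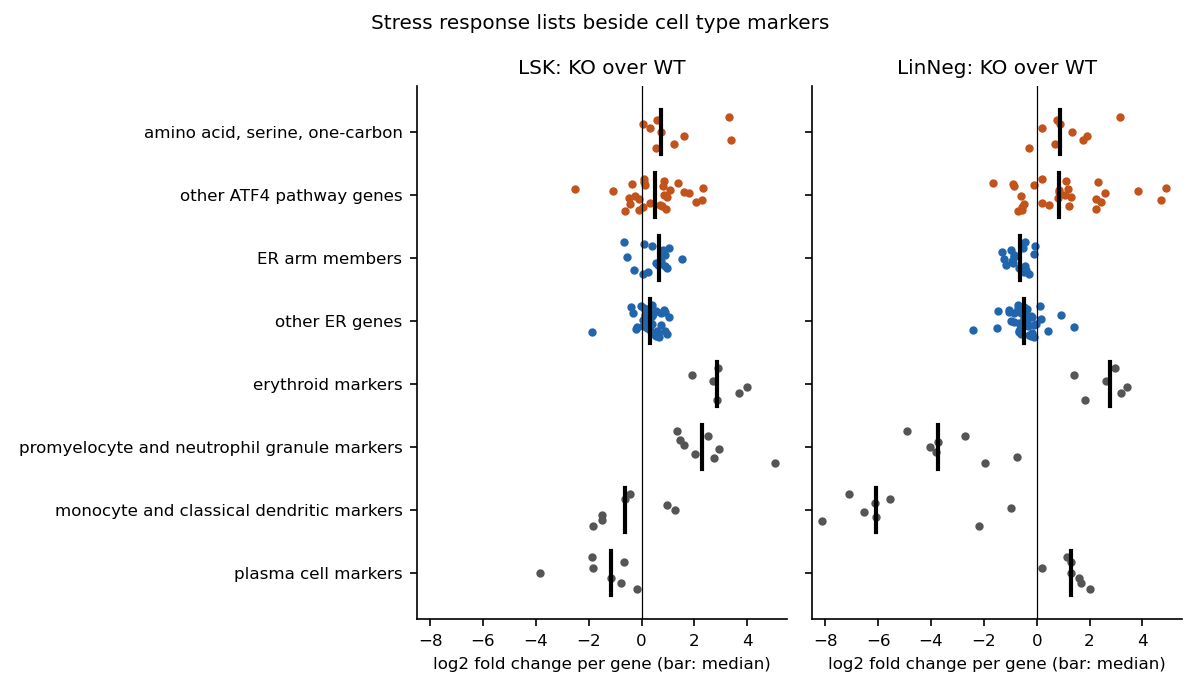
Log2 fold changes per gene, KO over WT, in LSK (left) and LinNeg (right) for the amino acid, serine and one-carbon members, the other ATF4 pathway genes, the ER members, the other ER genes and 4 marker lists; the black bar is the median of each list. The medians of the ER lists and the granule markers lie right of 0 in LSK and left of it in LinNeg, the erythroid markers lie right of 0 in both, and the plasma cell markers lie left of 0 in LSK and right of it in LinNeg.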

How the data were processed

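RNA-seq of 12 mouse bone marrow libraries was compared by the authors, KO over WT, within LSK and within LinNeg. Per the submitters' processing notes, HISAT2, SAMtools 1.10, StringTie and DESeq2 were used with build mm10. Which program counted reads, and on which annotation, is not given in the sources used here. Per the file headers, each deposited table gives per gene the mean of normalized counts (a signal on a linear scale), the log2 fold change and its standard error, the Wald statistic (a score), and the p-value and adjusted p-value. Values per library were not used here, so depth and counting intervals are unknown.

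Each table had 24542 rows. The 5 rows naming no gene (27.2% of the summed means in LSK and 38.7% in LinNeg) and 4 rows of repeated symbols were dropped. Each log2 fold change was taken as the product of the statistic and the standard error, which lay within 0.005 of the deposited value. The tests had been planned for either unit, and the authors' adjusted p was used as the call (under 0.05). Means under each label follow from the overall mean and the fold change if each side has 3 libraries. The difference test was tested on simulated data, where it missed part of the differences put in. A difference that was not called is thus no evidence of equal effects. Coordinates and exon lengths are from GENCODE M21 (mm10). Promoters are from RefSeq (GRCm38.p6). Scripts ran in Python 3.11.15 with scipy 1.17.1, numpy 2.4.6, matplotlib 3.10.9 and pandas 2.3.3.

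The members and lists were chosen with earlier results of these data known. A member was given its own values where it was called with a log2 fold change of at least 0.5 in size or where its effect differed between the populations. From each other pathway list the 3 largest rises and falls among called genes of mean 100 or more were named. Some markers of the lists are not reported here. U2af1, Xist, Ddx3y, Stc2, Cth and the eIF2 subunit genes were named after their values were seen. Alternatives were an adjusted p under 0.01, a fold change of at least 2, centring on the median gene, no filter on low counts, a mean of at least 100, and a weighted mean in place of the median.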

Additional observations from a re-analysis of the deposited data

Results flagged for a closer look

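For 23 of the 38 members the KO effect differed between LSK and LinNeg in the test of the difference itself (two-sided normal test on the authors' DESeq2 estimates, Benjamini-Hochberg adjusted p under 0.05), which is why they are listed here. All values are the LSK effect minus the LinNeg effect on the log2 scale. In the ER arm the effect was higher in LSK by 2.76 for Sdf2l1, 2.04 for Calr, 1.80 for Hsp90b1, 1.77 for Pdia6, 1.74 for Hyou1, 1.66 for Pdia3, 1.64 for Manf and 1.55 for Hspa5. It was also higher by 1.48 for Pdia4, 1.31 for Creld2, 0.91 for Canx, 0.73 for Edem1 and 0.65 for Atf6. In the integrated stress response arm it was higher in LSK by 3.74 for Chac1, 0.94 for Ddit3, 0.84 for Slc3a2, 0.65 for Eif2ak1, 0.64 for Eif2ak3 and 0.52 for Ppp1r15b. The LSK effect was the lower one for Trib3 (−2.18), Phgdh (−0.82), Ppp1r15a (−0.75) and Shmt2 (−0.60).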

How the results depend on the processing

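The counts of called members stayed within 1.5 times under an adjusted p below 0.01, centring on the median gene, no filter on low counts and a mean of at least 100, with the exceptions given here. At a fold change of at least 2, which asks for larger effects by construction, 7 members were called in LSK (7 higher, 0 lower) and 8 in LinNeg (4 higher, 4 lower). Members whose effect was lower in LSK numbered 2 after centring and 1 at an adjusted p under 0.01, against 4 as reported, and the cause was not tested. As an inverse-variance weighted mean in place of the median, the ER arm in LSK stood at 0.61 (median 0.68) and the integrated stress response arm in LinNeg at 0.43 (median 0.69). No result reversed. Of 188 repeats, by centring, no filter or a minimum mean, of called differences and of called fold changes of at least 0.5 on the log2 scale, 186 kept their call, and the differences of Ppp1r15a and Shmt2 lost it on centring. An adjusted p under 0.01 ended the calls of Eif2ak4 and Trib3 in LSK and of Hspa5, Dnajb9, Creld2 and Edem1 in LinNeg. Calls of the difference were gained on centring for Slc7a5 (0.63, adjusted p = 0.0139) and Sel1l (0.49, adjusted p = 0.0321), and at a mean of at least 100 for Slc7a5 (adjusted p = 0.0473). In LSK Ppp1r15a gained its call at a mean of at least 100 (adjusted p = 0.0497), and in LinNeg Slc3a2, Ern1, Herpud1 and Sel1l did on centring. At a mean of at least 100, Trib3 and Slc7a11 were not tested in either table and Chac1 was not tested in LSK. Leaving out each replicate could not be run, since the tables hold the authors' comparisons only. No paired analysis was possible because the tables hold no values per library. Standard errors limit LinNeg more than LSK: their median over the members was 0.072 in LSK and 0.19 in LinNeg on the log2 scale.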

Other observations

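The 3 subunits of eIF2, the factor that the stress kinases phosphorylate, rose in both populations, and were picked out after their values were seen. Eif2s1, for the subunit that carries the phosphorylation site, had derived means of 6108 in KO-labelled and 3390.0 in WT-labelled LSK libraries and 6159 in KO-labelled and 2868 in WT-labelled LinNeg libraries. Its log2 fold changes in the authors' deposited tables were 0.85 (SE 0.070, adjusted p = 4.59e-33) in LSK and 1.1 (SE 0.20, adjusted p = 5.70e-07) in LinNeg. Eif2s2 had 1.08 in LSK and 1.07 in LinNeg, and the X-linked Eif2s3x 1.34 in LSK and 1.25 in LinNeg, in the authors' deposited tables. The Y-linked copy Eif2s3y had −9.15 in LSK, with means of 3.33 in KO-labelled and 1895 in WT-labelled LSK libraries, and −0.86 (SE 1.45) in LinNeg, in the authors' deposited tables.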
